A study of Mus musculus with 12 samples.

Results

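The pluripotency genes Pou5f1, Prdm14, Fbxo15, Esrrb, Tdgf1 and Nodal were taken by name, 6 of the 13581 genes in the deposited tables, and all 6 passed the filters on low values. Their 5-hydroxymethylcytosine (5hmC) was described in heart and liver of C57BL6/j mice and in embryonic stem cells (ESC) of the EB5 line, of 129/Ola background. Whole hearts and livers came from embryonic day 14 (E14, 1 library each), from newborns at day 1 to 2 (P1, 2 libraries each) and from adults at 8 weeks (W8, 2 libraries each). The 2 ESC libraries came from cells grown with serum and LIF, a cytokine that holds mouse ESC in self-renewal. The labels name no mutation, transgene or drug in any group. Nothing in them says that replicates came from different animals or dishes, so each p-value reflects library-to-library spread alone, which may be technical.

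In hMe-Seal, 5hmC is tagged with a modified glucose, biotinylated and pulled down, so reads over a region grow with its 5hmC relative to other regions. Tet enzymes make 5hmC by oxidising 5-methylcytosine, a mark of silenced promoters when it lies at CG dinucleotides of the gene start. In many cell types 5hmC is common within bodies of genes and scarce at the start of highly active ones. Pou5f1, which encodes OCT4, is the master transcription factor of pluripotent cells and is silenced as they differentiate, with DNA methylation laid down at its promoter. Esrrb, an orphan nuclear receptor, and Prdm14, a zinc finger regulator, hold mouse ESC in the naive state. Nodal is a secreted ligand of the Tgfb family and Tdgf1, also called Cripto, is the cell surface co-receptor it signals through. Fbxo15 encodes an F-box protein whose gene is a target of OCT4 and a reporter of pluripotency, though ESC live without it. EB5 cells are known, outside these labels, to carry a drug resistance cassette in an allele of Pou5f1. Its part in the Pou5f1 values was not tested.

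Per gene, the authors deposited FPKM, a read count scaled by region length and library size, over a 4000 bp promoter window and over the gene body. The promoter window reached about 2000 bp to each side of the gene start, and the body was the rest of the gene, exons and introns together. For Pou5f1 on chromosome 17 (mm9, plus strand) the window spanned 35640982 to 35644981 and the body 35644982 to 35647721. For Tdgf1 on chromosome 9 (mm9, minus strand) the window spanned 110846663 to 110850662 and the body 110842114 to 110846662. For Nodal on chromosome 10 (mm9, plus strand) they were 60878720 to 60882719 and 60882720 to 60888086. For Esrrb on chromosome 12 (mm9, plus strand) they were 87700067 to 87704066 and 87704067 to 87862578. For Prdm14 on chromosome 1 (mm9, minus strand) they were 13115245 to 13119244 and 13103538 to 13115244. Bodies thus ran over 2740 bp in Pou5f1, 4549 bp in Tdgf1, 5367 bp in Nodal, 11707 bp in Prdm14, 44219 bp in Fbxo15 and 158512 bp in Esrrb, and long bodies hold more reads at the same FPKM.

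The 250 bases before the gene start show where CG dinucleotides, the usual substrate of 5hmC, lie in the middle of these promoter windows. They are given for the 3 genes with 0 to 2 promoter reads over both ESC libraries and for Esrrb, the member with the most, from RefSeq (GRCm38.p6), 5′ to 3′ on the gene's strand with each CG in capitals. Those of Prdm14 and Fbxo15 were not used here.
Pou5f1, chr17:35505782-35506031, plus strand: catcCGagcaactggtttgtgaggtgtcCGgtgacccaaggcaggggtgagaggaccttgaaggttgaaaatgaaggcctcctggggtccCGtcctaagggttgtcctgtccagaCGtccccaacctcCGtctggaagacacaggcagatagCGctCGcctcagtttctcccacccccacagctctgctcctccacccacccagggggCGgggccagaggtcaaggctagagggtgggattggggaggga
Tdgf1, chr9:110946159-110946408, minus strand: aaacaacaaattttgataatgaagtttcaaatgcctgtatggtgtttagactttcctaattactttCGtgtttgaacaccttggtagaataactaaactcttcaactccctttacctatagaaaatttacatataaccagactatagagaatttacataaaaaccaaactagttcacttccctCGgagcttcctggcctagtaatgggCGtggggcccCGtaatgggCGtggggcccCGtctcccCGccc
Nodal, chr10:61417722-61417971, plus strand: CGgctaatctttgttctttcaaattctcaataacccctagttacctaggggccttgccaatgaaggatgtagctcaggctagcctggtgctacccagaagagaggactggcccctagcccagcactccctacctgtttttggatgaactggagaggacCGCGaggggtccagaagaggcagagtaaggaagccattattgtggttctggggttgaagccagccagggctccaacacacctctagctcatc
Esrrb, chr12:86360867-86361116, plus strand: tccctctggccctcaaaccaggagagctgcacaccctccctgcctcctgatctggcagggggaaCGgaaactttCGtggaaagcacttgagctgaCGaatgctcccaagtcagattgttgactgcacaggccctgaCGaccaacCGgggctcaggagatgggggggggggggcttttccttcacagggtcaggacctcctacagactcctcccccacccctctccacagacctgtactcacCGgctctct
These stretches held 8 CG dinucleotides in Pou5f1, 7 in Tdgf1, 3 in Nodal and 6 in Esrrb. Over 4936 promoters of the same length the median was 14, with quartiles at 6 and 21, and 97.8% held at least 1. All 4 genes lay below that median.

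Reads behind the values were recovered from the steps between low FPKM values. Median reads per promoter window ran from 3 to 33.1 in 11 libraries but were 0.986 in W8 heart replicate 2, where 46.1% of promoter windows had no read and 1 read was worth 0.767 FPKM. That library is doubted, and the counts of calls below are given with and without it. Tissue libraries of E14 and W8 were single-end reads of 50 bp, those of P1 and of ESC paired-end reads of 75 bp. Read format cannot be told apart from W8 or E14 against ESC or P1, nor strain from any tissue against ESC. Of 12 hepatocyte markers in the files, 12 had lower body 5hmC in both P1 heart libraries than in both P1 liver libraries, and of 12 cardiomyocyte markers 9 were higher in heart. Fewer cells with 5hmC and less 5hmC per cell cannot be told apart in whole tissue.

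Promoter 5hmC of the 6 genes in ESC lay at both ends of the range. Over both ESC libraries the median promoter window held 16 reads, whereas Pou5f1 and Tdgf1 held 0, Nodal 2, Fbxo15 3, Prdm14 35 and Esrrb 55. No read in either library was seen for 0.627% of all promoter windows, at most 2 reads for 4.09% and at most 3 for 6.93%. For Pou5f1 and Tdgf1 a count of 0 allows up to 3 reads, or 0.125 FPKM, over the group, counting error only. Among all promoter windows Esrrb stood at percentiles 98.3 and 96.6 in the ESC libraries and Prdm14 at percentiles 91.3 and 81.3.

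**Figure D1:**
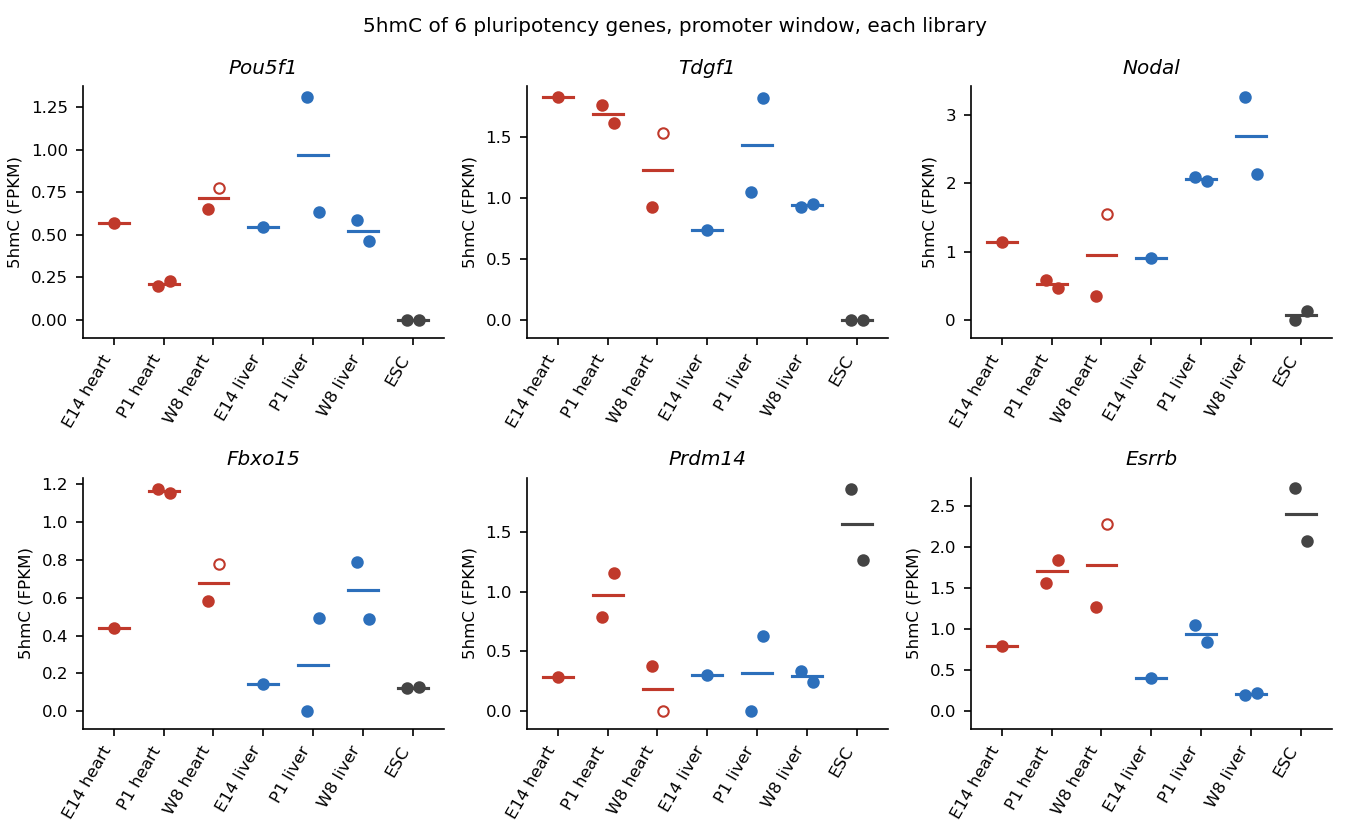
Promoter window 5hmC (FPKM, vertical axis) of the 6 genes in each library, by group, with heart in red, liver in blue, ESC in grey, bars at group means and the open circle marking W8 heart replicate 2. Pou5f1, Tdgf1 and Nodal lie at 0 to 0.126 FPKM in ESC, below every tissue library, while Prdm14 and Esrrb have their highest means in ESC.

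The promoter window of Pou5f1 held 0.196 and 0.231 FPKM in P1 heart, 1.31 and 0.632 FPKM in P1 liver, 0.568 FPKM in E14 heart, 0.548 FPKM in E14 liver, 0.655 and 0.778 FPKM in W8 heart and 0.590 and 0.461 FPKM in W8 liver, against 0 and 0 FPKM in ESC. Every tissue library was thus above both ESC libraries, with P1 heart lowest among them on 1 read per library. The mean of P1 liver, with 14 reads, was 7.75 times the 3-read limit of ESC, and that of W8 liver, with 36 reads, 4.19 times. Such a limit covers the ESC count only, not the spread of the tissue values. The differences did not pass limma's test after Benjamini-Hochberg adjustment over 13513 promoter windows (P1 heart adjusted p = 0.388, P1 liver 0.0723, W8 heart 0.117, W8 liver 0.120). With W8 heart replicate 2 left out, Pou5f1 was higher in P1 liver (adjusted p = 0.00992) and W8 liver (adjusted p = 0.0154), as 12.4% and 6.8% of promoter windows were in that fit. RefSeq lists 5 Pou5f1 pseudogenes, and how reads with several matches were handled is not given in the sources used here.

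Tdgf1, the Nodal co-receptor, had the clearest gain of promoter 5hmC. Its window held 1.77 and 1.61 FPKM in P1 heart, 1.05 and 1.83 FPKM in P1 liver, 1.83 FPKM in E14 heart, 0.741 FPKM in E14 liver, 0.930 and 1.53 FPKM in W8 heart and 0.930 and 0.951 FPKM in W8 liver, against 0 and 0 FPKM in ESC. The lowest tissue library had 0.741 FPKM, from 46 reads, so no tissue value came near those of ESC. The mean of P1 heart was 13.5 times and that of P1 liver 11.5 times the 3-read limit of ESC. On the log2(FPKM + 0.0723) scale, whose size here depends on the pseudocount, the limma difference was 4.61 ± 0.63 in P1 heart (SE, adjusted p = 0.0144) and 4.33 ± 0.63 in P1 liver (SE, adjusted p = 0.0118). Of all promoter windows tested, 0.0296% were called higher in P1 heart and 0.148% in P1 liver, and Tdgf1 was among both. Calls of a lower window, none of them a member, made up 0.0444% in P1 heart.

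Tdgf1 was also higher in W8 liver (log2 difference 3.81 ± 0.63, SE, adjusted p = 0.0339) and in W8 heart (4.13 ± 0.63, SE, adjusted p = 0.0489), where 0.163% and 0.0148% of promoter windows were called higher and, in W8 heart, 0.0074% lower. The W8 heart call was lost without W8 heart replicate 2 (3.79, adjusted p = 0.101) and when any library other than W8 heart replicate 1 was left out (adjusted p 0.101 to 0.184). The W8 liver call held without either W8 heart library (adjusted p = 0.00241 and 0.0027) and was lost without any other replicated one (0.0706 to 0.404). The P1 heart call was lost with any library other than those of W8 heart left out (adjusted p 0.0578 to 0.117) and with only the compared groups in the fit (adjusted p = 0.167). The P1 liver call was lost without either ESC library (adjusted p = 0.0873 and 0.0526), without either P1 liver library (0.294 and 0.199), and with libraries centred on their medians (3.86, adjusted p = 0.0754). RefSeq lists 2 Tdgf1 pseudogenes.

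Nodal, the ligand, had more promoter 5hmC in P1 liver and W8 liver than in ESC. Its window held 0.589 and 0.461 FPKM in P1 heart, 2.10 and 2.04 FPKM in P1 liver, 1.13 FPKM in E14 heart, 0.904 FPKM in E14 liver, 0.345 and 1.56 FPKM in W8 heart and 3.26 and 2.13 FPKM in W8 liver, against 0 and 0.126 FPKM in ESC. Both livers after birth exceeded every other library, and the ESC libraries lay below all tissues. The pooled rate was 24.5 times that of ESC in P1 liver (exact 95% interval 6.32 to 210, counting error only), 32.6 times in W8 liver (8.89 to 271) and 6.34 times in P1 heart (1.04 to 66.6), on 2 reads in ESC. The limma difference passed in P1 liver (4.16 ± 0.75, SE, adjusted p = 0.0442) and W8 liver (4.50 ± 0.75, SE, adjusted p = 0.0339) but not in P1 heart (2.31 ± 0.75, SE, adjusted p = 0.227) or W8 heart (2.78 ± 0.75, SE, adjusted p = 0.117). Both liver calls held without either W8 heart library (adjusted p 0.0024 to 0.00384) and were lost when any other replicated library was left out (adjusted p 0.0592 to 0.535). The P1 liver call was also lost with median centring (3.69, adjusted p = 0.121).

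In W8 liver the Nodal window stood at percentiles 99.8 and 98.5 of all promoter windows, against percentiles 2.42 and 7.04 in ESC. Heart and liver themselves did not pass at P1 (heart minus liver -1.85 ± 0.75, SE, adjusted p = 0.481) or at W8 (-1.72 ± 0.75, SE, adjusted p = 0.278). In each of these promoter comparisons 0.0074% of windows passed, lower in heart at P1 and higher in heart at W8, and 0 of the 6 genes did. At an unadjusted p under 0.05 there were 2 members at P1, Fbxo15 and Nodal, and 2 at W8, Esrrb and Nodal.

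Esrrb and Prdm14 had the opposite promoter levels. Esrrb held 1.57 and 1.84 FPKM in P1 heart, 1.05 and 0.843 FPKM in P1 liver, 0.791 FPKM in E14 heart, 0.403 FPKM in E14 liver, 1.27 and 2.29 FPKM in W8 heart and 0.197 and 0.217 FPKM in W8 liver, against 2.73 and 2.08 FPKM in ESC. Liver was below heart at every age. The value of 2.29 FPKM, from 3 reads of W8 heart replicate 2, was the one tissue value within the range of ESC. Promoter 5hmC of Esrrb was lower in W8 liver than in ESC, with a log2 difference of -3.14 ± 0.53 (SE, adjusted p = 0.0339), and 0.259% of promoter windows were called lower. With the smaller of the alternative pseudocounts Esrrb was not called there. This W8 liver call held without either W8 heart library (adjusted p = 0.00268 and 0.00273) and was lost when any other replicated library was left out (0.0706 to 0.392). The P1 liver difference of -1.28 ± 0.53 (SE, adjusted p = 0.224) passed without W8 heart replicate 2 (adjusted p = 0.0457).

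Prdm14 held 0.785 and 1.15 FPKM in P1 heart, 0 and 0.632 FPKM in P1 liver, 0.283 FPKM in E14 heart, 0.307 FPKM in E14 liver, 0.381 and 0 FPKM in W8 heart and 0.337 and 0.246 FPKM in W8 liver, against 1.86 and 1.26 FPKM in ESC. All tissue libraries were below both ESC libraries, P1 heart least so, and the 2 values of 0 came from libraries where 1 read was worth 0.262 and 0.767 FPKM. No difference passed (adjusted p 0.155 to 0.873 over the 4 tissue groups with replicates). P1 liver passed without W8 heart replicate 2 (-2.83 ± 0.89, SE, adjusted p = 0.0493), where 3.26% of promoter windows were called lower.

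Fbxo15 had 1.18 and 1.15 FPKM in P1 heart, 0 and 0.492 FPKM in P1 liver, 0.442 FPKM in E14 heart, 0.145 FPKM in E14 liver, 0.583 and 0.778 FPKM in W8 heart and 0.789 and 0.489 FPKM in W8 liver, against 0.124 and 0.126 FPKM in ESC. All tissue libraries except P1 liver replicate 1 were above ESC, and P1 heart, on 11 reads, was highest. Its pooled rate was 9.30 times that of ESC in P1 heart (exact 95% interval 2.46 to 51.9, counting error only). No limma difference passed (2.65 ± 1.03, SE, adjusted p = 0.307 in P1 heart and 0.03 ± 1.03, SE, adjusted p = 0.989 in P1 liver).

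Without a model, Pou5f1, Tdgf1 and Nodal had every one of the 10 tissue libraries above both ESC libraries in the promoter window, as 6.4% of all promoter windows did. With 0 ESC reads for Pou5f1 and Tdgf1 and 2 for Nodal, few tissue reads were enough for this. The share is over windows of any ESC level. Over the other 9 tissue libraries the same 3 genes separated from ESC, against a background of 10.5%. Prdm14 had every tissue library below ESC, as 10.4% of promoter windows did, and Esrrb joined it without W8 heart replicate 2, against 12.2%. Among gene bodies, Prdm14, Fbxo15 and Esrrb had every tissue library below ESC, as 16.8% of bodies did.

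Gene bodies gave another order. Pou5f1 was the only member with its body nearly free of 5hmC in ESC. It held 1.43 and 0.673 FPKM in P1 heart, 1.15 and 1.23 FPKM in P1 liver, 0.414 FPKM in E14 heart, 0.258 FPKM in E14 liver, 0.751 and 0 FPKM in W8 heart and 0.533 and 0.767 FPKM in W8 liver, against 0 and 0.0921 FPKM in ESC. The ESC values rest on 0 and 1 reads and stood at percentiles 0.258 and 1.36 of gene bodies. All tissue libraries but W8 heart replicate 2, listed at 0, were above them. The pooled rate was 17.8 times that of ESC in P1 heart (exact 95% interval 2.28 to 800) and 19.9 times in P1 liver (3.06 to 837), both on 1 read in ESC and covering counting error only.

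On the log2(FPKM + 0.0746) scale the Pou5f1 body difference was 3.25 ± 1.03 in P1 heart (SE, adjusted p = 0.0794) and 3.50 ± 1.03 in P1 liver (SE, adjusted p = 0.0615), neither past the threshold over 13484 gene bodies. In the fit that left out W8 heart replicate 2 the standard error was 0.47 and both passed (adjusted p = 0.00626 and 0.00491), and so did W8 heart (2.89 ± 0.58, SE, adjusted p = 0.0188) and W8 liver (2.68 ± 0.47, SE, adjusted p = 0.00485). In that fit 13.6% of gene bodies were called higher in P1 heart, 20.8% in P1 liver, 3.81% in W8 heart and 20.6% in W8 liver. Between body and promoter window, Pou5f1 was the only member whose levels in ESC were at or near 0 in both.

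**Figure D2:**
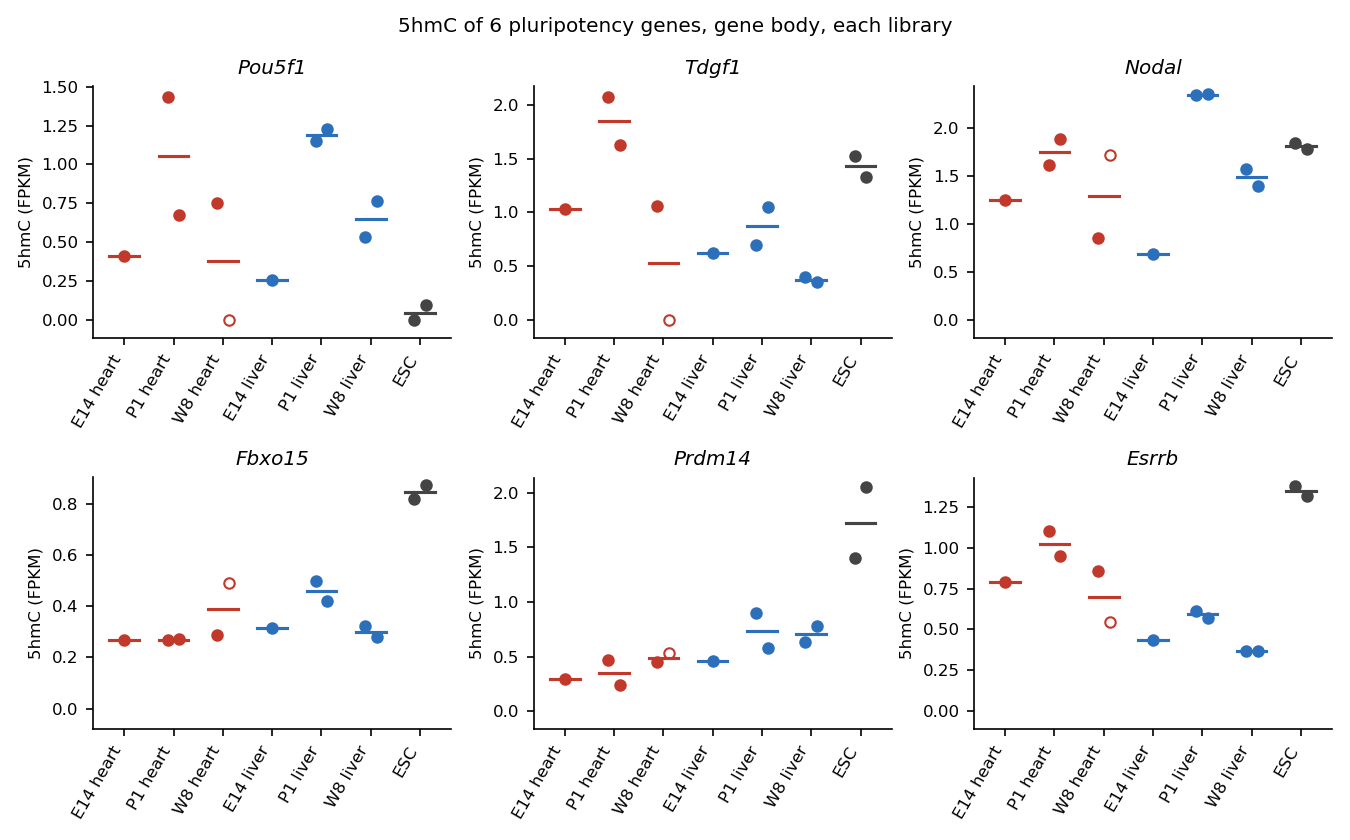
Gene body 5hmC (FPKM, vertical axis) of the 6 genes in each library, by group, drawn as for the promoter windows. Prdm14, Fbxo15 and Esrrb are highest in ESC, Pou5f1 is lowest there apart from the open circle, and Tdgf1 and Nodal in ESC lie within the range of the tissues.

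The Prdm14 body held 0.469 and 0.236 FPKM in P1 heart, 0.896 and 0.576 FPKM in P1 liver, 0.292 FPKM in E14 heart, 0.463 FPKM in E14 liver, 0.447 and 0.531 FPKM in W8 heart and 0.634 and 0.781 FPKM in W8 liver, against 1.40 and 2.05 FPKM in ESC. No tissue library reached the lower ESC value, and after birth every heart library lay below every liver library. Prdm14 was lower than in ESC in P1 heart (log2 difference -2.10 ± 0.34, SE, adjusted p = 0.0173), W8 heart (-1.65 ± 0.34, SE, adjusted p = 0.0223) and W8 liver (-1.18 ± 0.34, SE, adjusted p = 0.0339). The P1 liver difference was -1.15 ± 0.34 (SE, adjusted p = 0.0617).

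The Fbxo15 body, based on 7 to 217 reads per library, held 0.266 and 0.271 FPKM in P1 heart, 0.498 and 0.419 FPKM in P1 liver, 0.268 FPKM in E14 heart, 0.316 FPKM in E14 liver, 0.289 and 0.492 FPKM in W8 heart and 0.323 and 0.280 FPKM in W8 liver, against 0.819 and 0.873 FPKM in ESC. The groups did not overlap, and the highest tissue value was 0.498 FPKM. Fbxo15 was lower than in ESC in P1 heart (log2 difference -1.42 ± 0.23, SE, adjusted p = 0.0177), W8 heart (-1.02 ± 0.23, SE, adjusted p = 0.0295) and W8 liver (-1.29 ± 0.23, SE, adjusted p = 0.00673). In P1 liver the difference was -0.79 ± 0.23 (SE, adjusted p = 0.0626). The body of Fbxo15 includes another gene, Timm21, whose 5hmC is counted with it.

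Fbxo15 thus had less body 5hmC in P1 heart than in ESC while its promoter window held 11 reads there against 3 in ESC. The promoter minus body contrast, defined after the values were seen, was 4.07 ± 0.91 higher on the log2 scale in P1 heart than in ESC (SE, adjusted p = 0.18), which did not pass.

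Esrrb, the longest body, was the best measured member, with 28 to 1074 reads per library. It held 1.10 and 0.948 FPKM in P1 heart, 0.615 and 0.569 FPKM in P1 liver, 0.788 FPKM in E14 heart, 0.436 FPKM in E14 liver, 0.857 and 0.543 FPKM in W8 heart and 0.366 and 0.369 FPKM in W8 liver, against 1.38 and 1.32 FPKM in ESC. ESC lay above all tissues, and apart from W8 heart replicate 2, on 28 reads, every heart library was above every liver library. Esrrb was lower than in ESC in P1 liver (log2 difference -1.09 ± 0.21, SE, adjusted p = 0.0206), W8 liver (-1.69 ± 0.21, SE, adjusted p = 0.00217) and W8 heart (-0.91 ± 0.21, SE, adjusted p = 0.0305). In P1 heart the difference was -0.38 ± 0.21 (SE, adjusted p = 0.264). Another RefSeq gene, Gm40483, overlaps Esrrb.

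Set against ESC, 2 of the 6 bodies were thus called lower in P1 heart and 1 in P1 liver. At W8, 3 were called lower in each tissue, and at neither age was any called higher. Over all gene bodies 7.1% were called lower and 5.6% higher in P1 heart, 5.05% lower and 10.4% higher in P1 liver, 17.7% lower and 2.08% higher in W8 heart, and 21.3% lower and 13.4% higher in W8 liver. Median body differences over all genes were -0.13 in P1 heart, 0.10 in P1 liver, -0.41 in W8 heart and -0.14 in W8 liver. With libraries centred on their medians, 2 members were lower in P1 heart, 2 in P1 liver, 0 in W8 heart and 3 in W8 liver. Centring also moved the calls over all genes, which were 755 higher and 958 lower in P1 heart without it and 1521 higher and 669 lower with it. In W8 heart they were 280 higher and 2385 lower without it and 1334 higher and 423 lower with it, and in W8 liver 1807 and 2868 without it and 2701 and 2293 with it. With W8 heart replicate 2 left out, the members called lower numbered 2 in P1 heart, 3 in P1 liver, 4 in W8 heart and 4 in W8 liver. In that fit 19.5%, 12.8%, 23.9% and 30.1% of all bodies were called lower in the same order, and Pou5f1 was the member called higher in each.

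**Figure D3:**
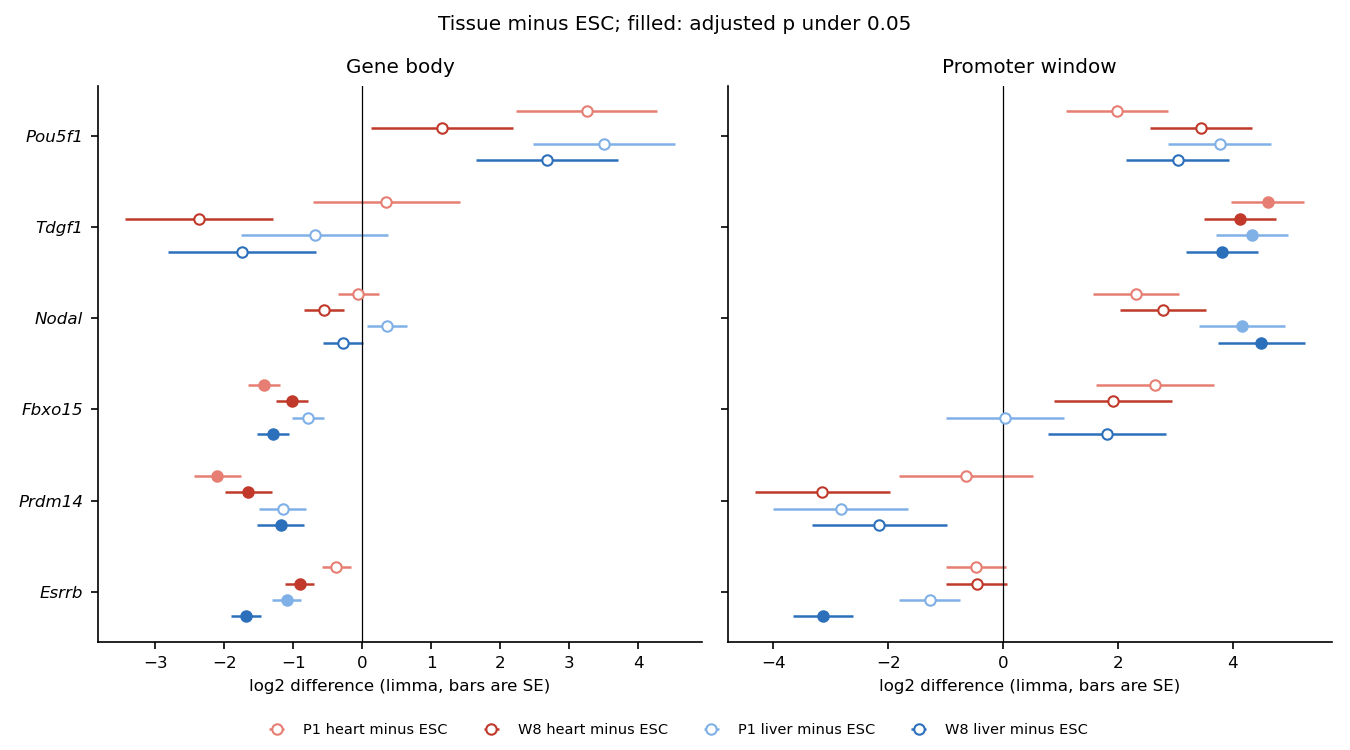
Differences in 5hmC between tissue and ESC for the 6 genes (log2 scale, horizontal axis) in gene bodies and promoter windows, with limma standard errors as bars and filled points for adjusted p under 0.05. Promoter differences of Pou5f1, Tdgf1 and Nodal are all above 0, and body differences of Prdm14, Fbxo15 and Esrrb are all below 0.

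The body calls rest on few libraries. Those of Prdm14 and Fbxo15 in P1 heart and of Esrrb in P1 liver were lost without either ESC library (adjusted p 0.099 to 0.123) and, more narrowly, without either W8 liver library (0.0557 to 0.0569). That of Prdm14 was also lost without P1 heart replicate 2 (adjusted p = 0.0704), that of Fbxo15 without either P1 heart library (0.0596 and 0.0728), and that of Esrrb without either P1 liver library (0.0984 and 0.0897). All 3 calls in W8 heart were lost without either ESC or either W8 liver library (adjusted p 0.0523 to 0.161), and that of Esrrb also without either P1 liver library (0.0521 and 0.052). In W8 liver the Prdm14 call was lost without either ESC library (0.0686 and 0.176) or either W8 liver library (0.166 and 0.104), and that of Fbxo15 without W8 liver replicate 2 (0.0591). The Esrrb call in W8 liver held with each replicated library left out in turn (adjusted p 0.00045 to 0.0266).

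The ligand Nodal and its co-receptor Tdgf1 had body 5hmC in every library, except that Tdgf1 had no read in W8 heart replicate 2. The Tdgf1 body held 2.07 and 1.62 FPKM in P1 heart, 0.692 and 1.05 FPKM in P1 liver, 1.03 FPKM in E14 heart, 0.622 FPKM in E14 liver, 1.06 and 0 FPKM in W8 heart and 0.397 and 0.350 FPKM in W8 liver, against 1.53 and 1.33 FPKM in ESC. P1 heart was above ESC and both livers after birth were below it. No Tdgf1 body difference from ESC passed (adjusted p 0.147 to 0.857). It was lower in W8 liver than in ESC in the fit without W8 heart replicate 2 (-1.74 ± 0.22, SE, adjusted p = 0.00151).

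The Nodal body held 1.61 and 1.89 FPKM in P1 heart, 2.34 and 2.36 FPKM in P1 liver, 1.25 FPKM in E14 heart, 0.684 FPKM in E14 liver, 0.849 and 1.72 FPKM in W8 heart and 1.57 and 1.40 FPKM in W8 liver, against 1.85 and 1.79 FPKM in ESC. ESC fell within the tissue range, and both P1 liver libraries were above every other library. No difference from ESC passed (-0.06 ± 0.29, SE, adjusted p = 0.917 in P1 heart and 0.36 ± 0.29, SE, adjusted p = 0.450 in P1 liver). It was lower in W8 heart than in ESC in the fit without W8 heart replicate 2 (-1.03 ± 0.15, SE, adjusted p = 0.0112).

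Tdgf1 and Nodal thus had bodies at 1.33 to 1.85 FPKM in ESC beside promoter windows at 0 to 0.126 FPKM. In ESC the Tdgf1 body stood at percentiles 77.5 and 74.6 of gene bodies and its promoter at percentiles 2.42 and 0.786 of promoter windows, the ranks of a value of 0. The promoter minus body contrast was higher in P1 heart than in ESC by 4.26 ± 1.16 for Tdgf1 (SE, adjusted p = 0.235) and by 2.37 ± 0.79 for Nodal (SE, adjusted p = 0.302). In P1 liver it was higher by 5.03 ± 1.16 for Tdgf1 (SE, adjusted p = 0.226) and by 3.80 ± 0.79 for Nodal (SE, adjusted p = 0.225). By limma 0 of 13460 genes passed this contrast in either tissue, with 1606 and 1592 at an unadjusted p under 0.05, 3 and 2 members among them. With W8 heart replicate 2 left out, Tdgf1 passed in P1 heart (adjusted p = 0.0159) and P1 liver (0.0142) and Nodal in P1 liver (0.0420), where 1.42% and 0.862% of genes were called higher.

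**Figure D4:**
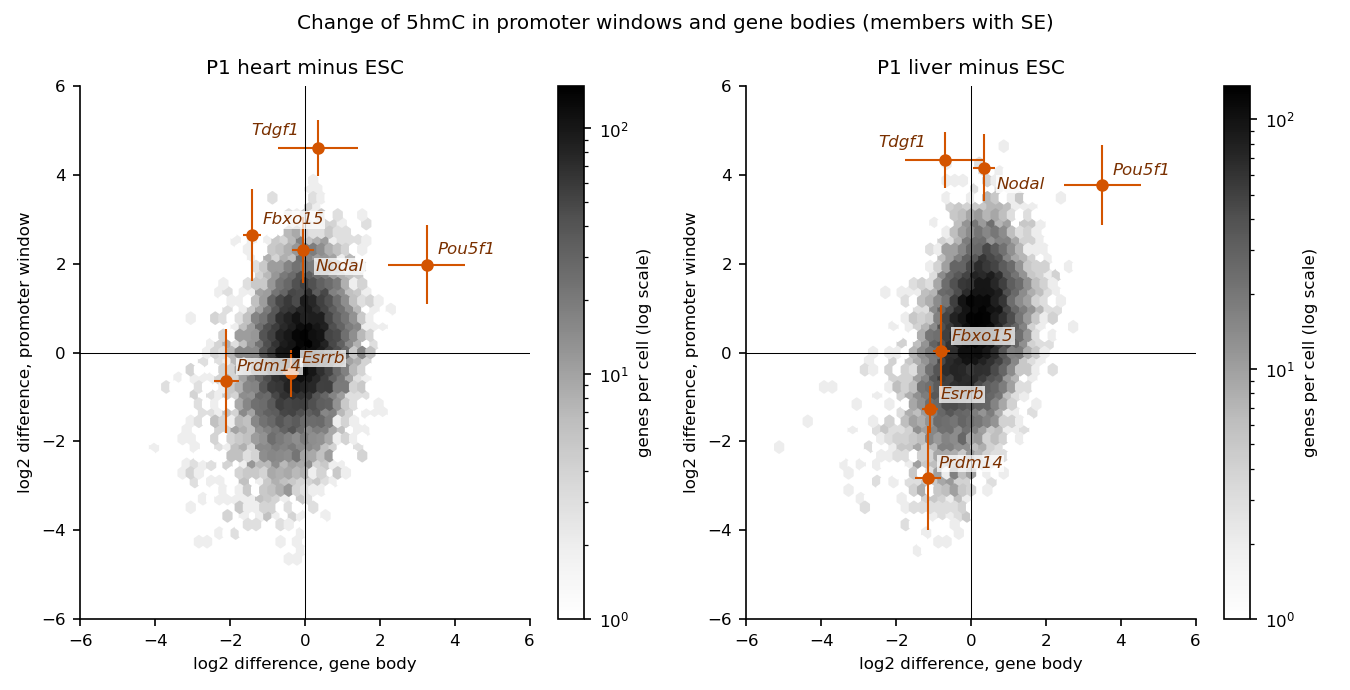
Difference between P1 tissue and ESC in the promoter window (vertical axis, log2) against that in the gene body (horizontal axis, log2), for all genes as grey cells and the 6 genes as points with standard errors. Tdgf1 lies at 4.61 and 4.33 on the promoter axis with body differences of 0.35 and -0.69, and Pou5f1 at 3.25 and 3.50 on the body axis.

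Between ages, W8 against P1, 0 of the 6 genes passed limma's test for body or promoter 5hmC in heart or in liver (adjusted p at least 0.128). At an unadjusted p under 0.05 there were 2 members in the heart body comparison, Esrrb and Tdgf1, and 1 in the liver body comparison, Esrrb. For promoter windows these numbers were 0 in heart and 1 in liver, again Esrrb. Over all genes 0.00742% of bodies each were called lower and higher in W8 heart, and 8.91% lower and 0.934% higher in W8 liver. For promoter windows 0.0074% were called higher in W8 heart and 0.0074% lower in W8 liver. In the fit without W8 heart replicate 2, 4 members were called lower in W8 liver than in P1 liver, against 21.2% of gene bodies. With the compared groups alone 4 members were lower there as well, where 2856 of 13484 bodies were called lower and 590 higher. Array weights gave 3 members lower, where 3566 bodies were called lower and 752 higher. The 4 without W8 heart replicate 2 were Fbxo15 (-0.50 ± 0.14, SE, adjusted p = 0.0433), Esrrb (-0.59 ± 0.12, SE, adjusted p = 0.0173), Tdgf1 (-1.05 ± 0.22, SE, adjusted p = 0.0193) and Nodal (-0.64 ± 0.13, SE, adjusted p = 0.0166).

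Between tissues, Esrrb was the member called, with more body 5hmC in W8 heart than in W8 liver (0.78 ± 0.21 on the log2 scale, SE, adjusted p = 0.0329), as for 9.49% of gene bodies. It was 1.08 ± 0.15 without W8 heart replicate 2 (SE, adjusted p = 0.00455). The call was lost without any 1 ESC, P1 liver or W8 liver library (adjusted p 0.0541 to 0.149). At P1 the heart minus liver difference of Esrrb was 0.72 ± 0.21 (SE, adjusted p = 0.105), and at that age 0 members passed, against 0.349% of bodies called higher and 1.93% lower in heart, with 3 at an unadjusted p under 0.05 (Prdm14, Fbxo15 and Esrrb). Once W8 heart replicate 2 was left out, Esrrb (0.72 ± 0.12, SE, adjusted p = 0.0138) and Tdgf1 (1.04 ± 0.22, SE, adjusted p = 0.0245) were higher in P1 heart than in P1 liver and Fbxo15 was lower (-0.63 ± 0.14, SE, adjusted p = 0.0260). In that fit 5.9% of bodies were called higher and 16.5% lower. With all libraries, the change of the heart minus liver difference of Esrrb between W8 and P1 was 0.06 ± 0.30 (SE, adjusted p = 0.922) and did not pass. That value rests on the W8 difference of 0.78, which was 1.08 without W8 heart replicate 2, against 0.72 at P1.

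Likeness among the 6 genes differed between bodies and promoter windows. Over the 11 libraries other than W8 heart replicate 2, log2 body values correlated at r = 0.89 between Prdm14 and Fbxo15 and at 0.90 between Esrrb and Tdgf1. Those of Pou5f1 and Fbxo15 ran at -0.70, and Nodal reached at most 0.43 with any other member. Log2 promoter values correlated at 0.81 between Pou5f1 and Tdgf1, at 0.85 between Pou5f1 and Nodal and at 0.76 between Tdgf1 and Nodal, and at -0.84 between Pou5f1 and Prdm14 and -0.80 between Esrrb and Nodal. The libraries share depth, format and strain, and the ESC pair carries much of such a correlation, so they are given as a description.

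The genes whose body values ran most like each member over those 11 libraries were Srsf3 for Pou5f1 (r = 0.963), Mag for Prdm14 (0.957), C330005M16Rik for Fbxo15 (0.982), Epb4.1l4a for Esrrb (0.990), Ppapdc3 for Tdgf1 (0.981) and Xrcc3 for Nodal (0.952). For Pou5f1 the next were Entpd4 (0.953) and Arf6 (0.951), for Prdm14 Shkbp1 (0.930) and Cdx2 (0.928), and for Fbxo15 Tctn2 (0.978) and Hoxa3 (0.971). For Esrrb they were Radil (0.988) and Grhl2 (0.988), for Tdgf1 Mfap2 (0.978) and Sgca (0.974), and for Nodal Asphd1 (0.941) and Plxnb1 (0.918). Of the 6093 bodies with enough spread, the 6 genes themselves were left out of this ranking. Their highest r with each other was 0.90, for Esrrb and Tdgf1. The genes named here are the highest of 6093 bodies, so their r is high by selection and cannot be set against it.

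Other genes of the pluripotency network were counted from lists that leave out the 6 members. Of 18 core and naive factors tested, 0 were higher and 1 was lower in P1 heart, and 0 were higher and 2 were lower in P1 liver. Over all gene bodies 5.6% were higher and 7.1% lower in P1 heart and 10.4% higher and 5.05% lower in P1 liver, and the counts of this and the following lists are to be read against these shares. Their median body difference was -0.43 in P1 heart and -0.52 in P1 liver (-0.38 and -0.23 with groups at 0 set to their 3-read limit), against -0.13 and 0.10 over all genes. Dppa2, a chromatin factor of ESC, had 0.325 and 0.382 FPKM in P1 heart and 0.145 and 0.0775 FPKM in P1 liver, against 0.958 and 1.15 FPKM in ESC. The log2 difference was -1.40 ± 0.34 in P1 heart (SE, adjusted p = 0.0426) and -2.62 ± 0.34 in P1 liver (SE, adjusted p = 0.00886). Tcl1, an activator of Akt kinase, had 0 and 0.212 FPKM in P1 liver, against 2.37 and 2.92 FPKM in ESC (adjusted p = 0.0360). Leaving out W8 heart replicate 2, the list had 1 higher and 5 lower in P1 heart and 1 higher and 6 lower in P1 liver, where 13.6% and 20.8% of all bodies were higher and 19.5% and 12.8% lower. With median centring it had 1 higher and 0 lower in P1 heart, so the Dppa2 call there was lost.

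Of 16 other genes of Nodal signalling, 1 was higher and 1 lower in P1 heart and 5 were higher and 2 lower in P1 liver, with medians of 0.05 and 0.39. In the fit without W8 heart replicate 2 these counts were 2 and 2 in P1 heart and 6 and 3 in P1 liver. Acvr2a, a receptor of the pathway, rose in both P1 heart (0.95 ± 0.19, SE, adjusted p = 0.0269) and P1 liver (0.86 ± 0.19, SE, adjusted p = 0.0292). Gdf3, a ligand that also uses Cripto, had 1.95 and 2.51 FPKM in P1 liver, against 0.185 and 0.564 FPKM in ESC (adjusted p = 0.0230), and the signal transducer Smad2 rose there too (0.97 ± 0.19, SE, adjusted p = 0.0224). Eomes, a target gene of Nodal, fell in P1 liver (-1.84 ± 0.47, SE, adjusted p = 0.0416).

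Of 9 genes of LIF signalling, 2 were higher in P1 heart and 3 in P1 liver, and 0 were lower in either, with medians of -0.00094 and 0.26 (0.19 in P1 heart with median centring). The fit without W8 heart replicate 2 gave 2 higher and 1 lower in P1 heart and 3 higher and 0 lower in P1 liver. Jak1, the kinase at the LIF receptor, rose by 0.98 ± 0.14 in P1 heart (SE, adjusted p = 0.0149) and by 1.56 ± 0.14 in P1 liver (SE, adjusted p = 0.00712). Myc, a target of the pathway, rose by 2.14 ± 0.50 in P1 heart (SE, adjusted p = 0.0383) and by 2.24 ± 0.50 in P1 liver (SE, adjusted p = 0.0300), and the adaptor Grb2 rose in P1 liver by 0.81 ± 0.14 (SE, adjusted p = 0.0146).

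Of 12 genes of the formative and primed states, 1 was higher and 0 lower in P1 heart, and 1 was higher and 1 lower in P1 liver, with medians of -0.38 and -0.46 (-0.02 in P1 liver with groups at 0 set to their limit). Leaving out W8 heart replicate 2, 2 were higher and 3 lower in P1 heart and 4 higher and 3 lower in P1 liver. Cdh2, N-cadherin, rose in P1 heart (1.67 ± 0.33, SE, adjusted p = 0.0263) and Mycn in P1 liver (1.66 ± 0.40, SE, adjusted p = 0.0369). Zic2 had no read in either P1 liver library, against 1.23 and 1.46 FPKM in ESC (adjusted p = 0.00712). Its ESC mean was 4.89 times the 3-read limit of P1 liver. Of 9 genes linked to the writing, copying or removal of cytosine methylation and 5hmC, 0 were higher and 2 lower in P1 heart. In P1 liver 0 passed, and the medians were -0.24 and -0.10. The 2 were Uhrf1 (-1.37 ± 0.22, SE, adjusted p = 0.0171) and Dnmt1 (-1.24 ± 0.27, SE, adjusted p = 0.0325), which maintain methylation. Leaving out that library, 1 was higher and 2 lower in P1 heart and 3 higher and 0 lower in P1 liver. Of 9 germ line genes 1 was lower in P1 heart, Prdm1 (-0.95 ± 0.15, SE, adjusted p = 0.0174), and 0 passed in P1 liver, with medians of -0.36 and -0.30. Leaving out that library, 0 were higher and 2 lower in P1 heart and 1 higher and 2 lower in P1 liver.

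**Figure D5:**
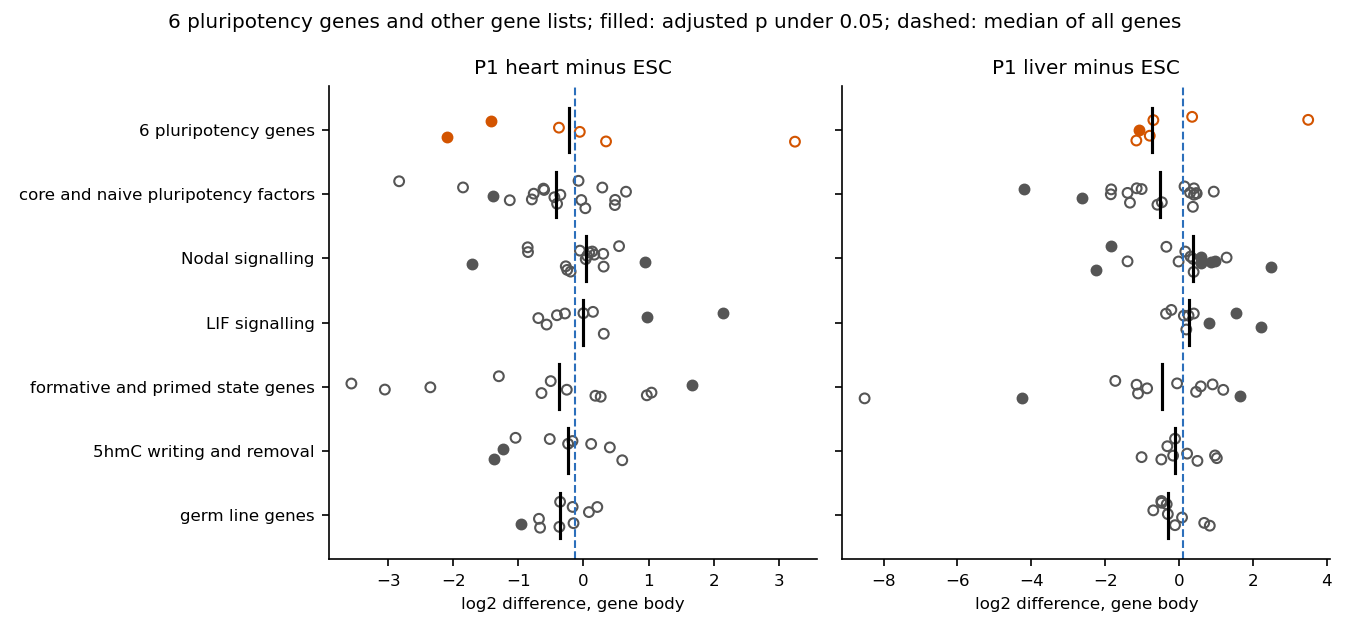
Difference in gene body 5hmC between P1 tissue and ESC (log2, horizontal axis) for the 6 genes and for 6 lists of related genes, with filled points for adjusted p under 0.05, black bars at list medians and a dashed line at the median of all genes. The 6 genes spread from -2.10 to 3.25 in P1 heart and from -1.15 to 3.50 in P1 liver.

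Promoter windows of these lists held few calls with all libraries in the fit. In P1 heart 0 of the listed genes passed, and in P1 liver 1 did, Rif1 of the core list, named here after its values were seen. It had 2.36 and 1.48 FPKM in P1 liver, against 0 and 0.126 FPKM in ESC (4.02 ± 0.72, SE, adjusted p = 0.0442), levels near those of Nodal, and its call was lost with median centring. L1td1 of the same list, also named after its values were seen, had no promoter read in ESC. Its means of 1.66 FPKM in P1 heart and 1.12 FPKM in P1 liver were 13.2 and 8.94 times the 3-read limit of ESC. Neither passed limma's test (adjusted p = 0.0509 and 0.0518). In that list 9 of 18 genes were above ESC and 9 below in P1 heart, and 12 above and 6 below in P1 liver. Their median differences were 0.22 and 0.19, against -0.02 and 0.44 over all windows. Without W8 heart replicate 2, promoter calls in P1 heart were 3 core genes higher and 1 Nodal signalling gene, 1 gene of 5hmC writing and removal and 3 germ line genes lower, against 3.01% of windows higher and 2.7% lower. In P1 liver they were 3 core, 2 Nodal signalling and 2 LIF genes higher and 1 Nodal signalling and 1 germ line gene lower, against 12.4% higher and 3.26% lower.

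Markers of the cells in each tissue, given beside these values, moved as follows. Of 12 hepatocyte markers 5 were higher and 0 lower in P1 liver than in ESC, Apob (2.15 ± 0.41, SE, adjusted p = 0.0199), Cyp7a1 (2.09 ± 0.46, SE, adjusted p = 0.0284) and Itih3 (1.73 ± 0.18, SE, adjusted p = 0.00712) most. In P1 heart 0 were higher and 1 was lower, Ass1 (-1.17 ± 0.16, SE, adjusted p = 0.0141). Of 12 cardiomyocyte markers 2 were higher in P1 heart, Ryr2 (1.07 ± 0.27, SE, adjusted p = 0.0464) and Myom1 (1.02 ± 0.19, SE, adjusted p = 0.0234). In P1 liver Myom1 was higher (0.77 ± 0.19, SE, adjusted p = 0.0393) and Tbx5 (-1.46 ± 0.25, SE, adjusted p = 0.0155) and Actn2 (-0.65 ± 0.17, SE, adjusted p = 0.0436) were lower. In the fit without W8 heart replicate 2, hepatocyte markers had 0 higher and 2 lower in P1 heart and 8 higher and 0 lower in P1 liver. Cardiomyocyte markers then had 5 higher and 0 lower in P1 heart and 1 higher and 7 lower in P1 liver.

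The 7 erythroid markers in the files, of 10 listed, summed to 5.94 to 7.73 FPKM in P1 heart and 9.49 to 10.1 FPKM in P1 liver, against 9.48 to 11.02 FPKM in ESC, and 0 of them passed in either tissue. Once W8 heart replicate 2 was left out, 3 were lower in P1 heart and 1 was higher in P1 liver. The 10 fibroblast markers summed to 7.33 to 7.92 FPKM in P1 heart and 8.07 to 8.51 FPKM in P1 liver, against 10.4 to 11.2 FPKM in ESC. Of these, 1 was higher and 1 lower in P1 heart and 3 were higher and 2 lower in P1 liver, and without that library 1 and 2 in P1 heart and 3 and 2 in P1 liver. Dcn rose in P1 heart (1.05 ± 0.21, SE, adjusted p = 0.0256) and P1 liver (1.17 ± 0.21, SE, adjusted p = 0.0155), Col3a1 (0.83 ± 0.22, SE, adjusted p = 0.0446) and Pdgfrb (0.49 ± 0.13, SE, adjusted p = 0.0464) rose in P1 liver, and Pdgfra fell there (-0.75 ± 0.20, SE, adjusted p = 0.0456). Tcf21, with a very short body, had no read in P1 heart or P1 liver, against 1.75 and 3.27 FPKM in ESC. Its ESC mean was 1.68 times the 3-read limit of P1 heart and 3.21 times that of P1 liver. The part of cell makeup in the values of the 6 genes was not tested.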

How the data were processed

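DNA was sheared, 5hmC was glucosylated and biotinylated, and fragments were captured on streptavidin, per the labels' protocols. The submitters' processing notes name Bowtie2 and mm9, with no version. The authors' deposited values are FPKM, per the file headers, over a 4000 bp promoter window and the gene body. Gene length in RefSeq (GRCm38.p6) minus body length had a median of 2027 bp over 12378 genes matched by symbol, so the window was taken as centred on the gene start. The files name no chromosome; these came from RefSeq. Starts, counted from 0 in the files, are printed from 1. Low values of promoter windows came in steps of 1 read, 100% of them within 0.01 reads of a step; single-end libraries had a pair of step sizes about 1.03 apart, so their reads are approximate. Reads over gene bodies numbered 142778 to 5761636 per library.

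Values were taken as log2(FPKM + pseudocount), with pseudocounts of 0.0746 for bodies and 0.0723 for promoter windows, the median non-zero value divided by 10, which understates changes of low genes. Windows with a mean of at least 0.0809 (13484 bodies of 13549) or 0.0739 FPKM (13513 promoter windows of 13558) were kept. Group means, 7 in all, were fitted to the 12 libraries with limma 3.58.1 (R 4.3.3) and a variance trend. P-values were adjusted by Benjamini-Hochberg within each comparison, at 0.05. E14 groups have 1 library each and were not tested. Exact intervals on reads cover counting error only. Scripts were tested on simulated data, with 100 genes changed 2-fold and 100 changed 4-fold in P1 against ESC. At 4-fold, 45% of changed bodies were called in P1 heart and 38% in P1 liver, but 0% and 2% of changed promoter windows. At 2-fold, 4% and 0% of bodies were called, and 0% of promoter windows in either tissue. A difference that did not pass is thus not one shown to be absent. Members and gene lists were chosen with earlier results of these data known. The genes named are the 6 members, the up to 3 called genes of largest difference in each direction per list, and the 3 genes of highest r per member (SD at least 0.5). A gene that this rule names is not reported here. Promoter comparisons of W8, between ages and between tissues, the promoter minus body contrast and the change of heart minus liver with age were added after the values were seen. The alternatives were other pseudocounts, filters and scalings, a replicate block, array weights, the compared groups alone, and each replicated library left out in turn.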

Additional observations from a re-analysis of the deposited data

Results flagged for a closer look

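The body 5hmC of Esrrb differed between W8 heart and W8 liver, a call lost with array weights and with the compared groups alone. The difference was 0.78 on the log2 scale for W8 heart minus W8 liver, from 0.857 and 0.543 FPKM in W8 heart and 0.366 and 0.369 FPKM in W8 liver. The lower W8 heart value comes from the doubted library, and the difference was 1.08 without it.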

How the results depend on the processing

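Counts here are members called, higher and lower together, to be read against the calls over all genes in the same setting. With 5 times the pseudocount they were 4 for P1 liver minus ESC in bodies and 3 for W8 heart minus ESC in promoter windows. With the smaller pseudocount 1 each passed for P1 liver and W8 liver minus ESC in promoter windows. With median centring they were 2 for P1 liver and 0 for W8 heart minus ESC in bodies, and 0 for P1 liver minus ESC in promoter windows. With quantile normalization they were 3 for P1 liver and 0 for W8 heart in bodies, and 2 for P1 heart, 5 for P1 liver, 3 for W8 heart and 5 for W8 liver in promoter windows, each minus ESC. It also gave 1 for W8 heart minus W8 liver in promoter windows and 2 for each promoter minus body contrast. Over all promoter windows it called 661 higher and 788 lower in P1 liver and 1158 and 1575 in W8 liver, each minus ESC.

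With array weights, body counts were 4 for P1 liver, 0 for W8 heart and 5 for W8 liver minus ESC, 3 for W8 liver minus P1 liver, 1 for P1 heart minus P1 liver and 0 for W8 heart minus W8 liver. Promoter counts were then 2 for P1 heart, 5 for P1 liver, 0 for W8 heart and 6 for W8 liver minus ESC, 1 for W8 liver minus P1 liver, and 2 for each promoter minus body contrast. Of all 13484 bodies, array weights called 3713 higher and 5049 lower in W8 liver minus ESC. Of 13513 promoter windows they called 2930 higher and 2910 lower there, and 2328 and 772 in P1 liver minus ESC. With the compared groups alone, body counts were 3 for P1 liver, 0 for W8 heart and 5 for W8 liver minus ESC, 4 for W8 liver minus P1 liver and 0 for W8 heart minus W8 liver. Promoter counts were 0 for P1 heart, 4 for P1 liver, 0 for W8 heart and 6 for W8 liver minus ESC. In W8 liver minus ESC this setting called 3461 of all bodies higher and 4987 lower. Of all promoter windows it called 2392 higher and 2878 lower there.

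With 1 library left out at a time, body counts ran from 0 to 3 for P1 heart, 0 to 4 for P1 liver, 0 to 5 for W8 heart and 1 to 5 for W8 liver minus ESC. They ran from 0 to 4 for W8 minus P1 in heart and in liver, 0 to 3 for P1 heart minus P1 liver and 0 to 4 for W8 heart minus W8 liver. Promoter counts ran from 0 to 2 for P1 heart, 0 to 5 for P1 liver, 0 to 4 for W8 heart and 0 to 4 for W8 liver minus ESC, and 0 to 1 for W8 heart minus P1 heart and W8 heart minus W8 liver. The promoter minus body contrast also changed with the library left out. Calls over all genes rose and fell widely in the same fits, most of all for W8 heart minus ESC. The ranges of member counts are thus not a result about the members.

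Sign changed in differences that had not passed. For Nodal in bodies, P1 heart minus ESC was 0.13 with median centring, 0.084 with quantile normalization and -0.17 to 0.055 with 1 library left out. For W8 heart minus W8 liver it was 0.044, 0.059 and -0.75 to 0.21 under the same settings. Prdm14 in bodies, W8 liver minus P1 liver, was 0.23, 0.26 and -0.32 to 0.26. Pou5f1 in bodies, P1 heart minus P1 liver, was 0.00033 with median centring and -0.76 to 0.25 with 1 left out. For W8 heart minus ESC it ran from -0.58 to 2.89, and for W8 heart minus W8 liver from -3.26 to 0.21. In bodies, W8 heart minus W8 liver ran from -0.044 to 0.59 for Fbxo15 and from -2.59 to 1.34 for Tdgf1, which was 0.21 with quantile normalization. In promoter windows Fbxo15, P1 liver minus ESC, was -0.71 with the smaller pseudocount, -0.44 with median centring and -1.45 to 1.51 with 1 left out. W8 heart minus W8 liver ran from -2.32 to 0.33 for Prdm14 (0.29 with quantile normalization), from -0.21 to 0.41 for Fbxo15 and from -0.015 to 0.67 for Tdgf1. Tdgf1, P1 heart minus P1 liver, ran from -0.11 to 0.65. The cause of these changes was not tested; a fit without a library has fewer residual degrees of freedom and, where 1 library of a group is left, takes its spread from the others.

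Libraries with the same number showed no shared deviation (r -0.0205 to 0.042 over 10 pairs in each measure, 0 above 0.1). Counting noise lowers such an r, so whether the numbers pair libraries is not settled by it. With the replicate block, 2 members passed for body W8 liver minus ESC, and the other member counts were those without it. Over all genes it gave 1 higher and 4 lower bodies for P1 heart minus P1 liver, against 47 and 260 without it. Without W8 heart replicate 2, calls over all genes were 1840 higher and 2628 lower for body P1 heart minus ESC and 1669 and 440 for promoter P1 liver minus ESC, against 755 and 958, and 20 and 2, with it. With W8 heart replicate 1 left out instead, calls in both comparisons rose about as far, so the rise is not particular to the doubted library. Depth limits the promoter windows, where ESC counts of 0 to 3 reads set the folds of Pou5f1, Tdgf1, Nodal and Fbxo15.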
